A study of Mus musculus with 12 samples.

Results

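The 10 genes described here, of 25033 rows in a mouse liver Ribo-seq table, are the long non-coding RNAs Neat1, Malat1 and H19 and the small nucleolar RNA (snoRNA) host genes Gas5, Snhg1, Snhg3, Snhg5, Snhg6, Snhg8 and Snhg12. They were taken from the table by symbol. The set was chosen by its measured values: Neat1 was selected because its level was far lower in the lycopene group, and the host genes were added as a contrast, so the Ribo-seq levels of the 10 genes are a description and carry no test. Neat1 and Malat1 were abundant and lower in all 3 lycopene libraries, H19 was nearly absent, and the summed level of the 7 host genes overlapped between the groups, on 316 reads in the high-fat group and 29 in the lycopene group, where 44.3 were to be had at the high-fat rate in these shallower libraries.

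The mice were C57BL/6 males, written C57/BL6 in the study's methods. They were 16 weeks old at sampling and had received a high-fat diet for 8 weeks from an age of 8 weeks. The HFD group received that diet alone, and in the LYC group the high-fat feed also contained lycopene, the red carotenoid of tomato; the treatment label of the LYC libraries names the diet only, and lycopene is given by the group name. By the labels, each group has 3 Ribo-seq libraries and 3 libraries labelled RNA-seq. In the Ribo-seq protocol, ribosomes were pelleted after nuclease digestion and the protected RNA fragments were sequenced. The titles name replicates, and the paper describes 3 biological replicates per group for Ribo-seq. The protocol speaks of pooled RNA, so the spread between libraries may be technical. The comparison asks what lycopene changed in livers under a high-fat diet.

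Long non-coding RNAs are transcribed and often spliced like mRNAs but are not known to be read into a stable protein. Neat1 and Malat1 are neighbouring genes whose RNAs stay in the nucleus: the long form of Neat1 is the scaffold of paraspeckles, and Malat1 gathers in nuclear speckles, where splicing factors are stored. H19 is an imprinted RNA of the fetal liver that is largely shut off after birth. A snoRNA host gene is transcribed for what lies in its introns: C/D box snoRNAs guide 2′-O-methylation of ribosomal RNA, H/ACA box snoRNAs guide pseudouridylation, and the spliced host RNA itself is exported, often begins with a pyrimidine tract as mRNAs of ribosomal proteins do, is engaged by ribosomes and is removed by nonsense-mediated decay.

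The annotated starts of the host genes are shown first, because a pyrimidine tract at the start (a TOP-like start) is the feature by which such RNAs resemble ribosomal protein mRNAs. The RefSeq promoter table for build GRCm38.p6 has entries for 7 of the 10 genes, and Neat1, H19 and Snhg6 have none. Each line gives 12 bases before and 16 bases from the annotated start, 5′ to 3′ on the strand of the gene, with capitals for a run of at least 5 bases of C or T that begins with a C within 5 bases of the start.
Gas5, second start, chr1:161035154-161035181, plus strand: cgccatctcagCCTTTCggagctgtgcg
Snhg8, chr3:123508321-123508348, minus strand: ccgttcagaagtCTCTTTggctgcgatc
Snhg12, chr4:132308666-132308693, plus strand: cgttctcagtCCTTTCTCgcttcatccg
Snhg3, chr4:132353671-132353698, minus strand: tcgaccacgcctgaCTTCCgggcgttac
Snhg1, chr19:8723475-8723502, plus strand: gttcttgtcggcctcatttttccttgtt
Snhg5, chr9:88522882-88522909, minus strand: ctgcggtgaaccgggctcgttcttttac
Malat1, chr19:5802657-5802684, minus strand: cgggctctgcgtcaggcattcaggcagc
Of the 6 host genes with an entry, 4 had such a run, Gas5, Snhg8, Snhg12 and Snhg3, which is 4 of their 7 annotated starts. Snhg1, Snhg5, Malat1 and the other annotated start of Gas5 had none in this window. Over all 32851 starts of the table the share was 18.3%, and over the 73 starts of 61 cytosolic ribosomal protein genes it was 42.5%. With a run of at least 7 bases, 1 host gene was left, Snhg12, beside 6.48% of all starts and 31.5% of the ribosomal protein starts. With a run that begins within 10 bases of the start, 5 host genes had one, beside 30.7% and 56.2%. A match describes letters at an annotated start and not the start used in these livers.

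Inside the host genes lie the snoRNAs, and the next sequences are those of the called snoRNAs and of Snord47 and Snora24, which the later comparison with the hosts describes, read from the GRCm38.p6 genome on the strand of the gene. Capitals mark the C box letters TGATGA in the first 25 bases and the D box letters CTGA in the last 20 bases of C/D box snoRNAs, and the letters ACA in the last 8 bases of H/ACA box snoRNAs, each searched on the strand of the gene only.
Snord47, in an intron of Gas5, chr1:161038092-161038156: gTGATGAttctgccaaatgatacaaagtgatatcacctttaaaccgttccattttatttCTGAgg
Snord87, in an intron of Snhg6, chr1:9942470-9942543: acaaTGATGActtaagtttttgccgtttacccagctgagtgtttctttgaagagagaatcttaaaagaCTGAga
Snord99, in an intron of Snhg12, chr4:132310703-132310758: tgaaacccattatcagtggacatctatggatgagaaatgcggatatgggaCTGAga
Snora16a, in an intron of Snhg12, chr4:132309465-132309600: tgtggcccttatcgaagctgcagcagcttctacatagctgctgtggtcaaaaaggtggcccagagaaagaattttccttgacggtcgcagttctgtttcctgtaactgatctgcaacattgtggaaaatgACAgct
Snora44, in an intron of Snhg12, chr4:132309953-132310069: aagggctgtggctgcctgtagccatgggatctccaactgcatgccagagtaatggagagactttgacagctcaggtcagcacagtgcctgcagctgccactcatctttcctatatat
Snora24, inside the exon of Snhg8, chr3:123507937-123508066: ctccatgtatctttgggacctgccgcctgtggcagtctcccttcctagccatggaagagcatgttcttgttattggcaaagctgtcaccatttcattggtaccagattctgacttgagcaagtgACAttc
Among the 93 Snord genes of RefSeq, 47.3% hold TGATGA and 98.9% hold CTGA in these windows, and among 39 Snora genes 94.9% hold ACA. Snora44 has no ACA in this window and is called an H/ACA box snoRNA here by its name; Snord99 has no TGATGA in its window. Snora24 differs from the others in its place: Snhg8 has 1 exon of 785 bases in RefSeq, and that exon contains the snoRNA, so reads of the snoRNA also lie on the host model.

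Before the levels, several properties of the libraries matter for the values below. The deposited Ribo-seq values are RPKM, reads scaled to the length of the gene model and to the reads of the library, and whole read counts were recovered from their steps: the HFD libraries hold 834410 to 4405541 reads and the LYC libraries 311050 to 412116, so that the medians differ by a factor of 6.91. At the HFD rate, 7 of the 10 genes would be given fewer than 9 reads over all 3 LYC libraries together. The 6 libraries labelled RNA-seq are not a separate measurement of these genes. Each of its columns matches 1 Ribo-seq library: 23.9% to 76.4% of genes have exactly the same read number in matching columns against at most 7.1% in any other pair, and 79.4% to 84.7% of genes with at least 20 reads have similar read numbers, within 10%, against at most 16.1%. LYC columns match under the same number, whereas Ribo-seq HFD replicates 1, 2 and 3 match the HFD columns labelled RNA-seq 3, 1 and 2. In the columns labelled RNA-seq, the gene Lars2 took 6.7% to 15.0% of counts in HFD and 35.9% to 40.3% in LYC. The RPKM of these columns are scaled to totals that include it. Depth and this share both separate the groups, and their part cannot be told apart from that of the treatment. The table labelled RNA-seq is used here as a second count of the same reads under other gene models, and no translational efficiency was computed. Since the same reads carry 2 assay labels, their assay is not settled here, and they are called Ribo-seq by label only. Reads on snoRNAs, and on RNAs that stay in the nucleus such as Neat1 and Malat1, need not be ribosome footprints. This was not tested.

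Markers of hepatocytes were present in every library, with a summed level of 6 genes of 37762 to 41221 RPKM in HFD and 27007 to 34285 RPKM in LYC. Albumin (Alb) carried most of that sum, with means of 27134 and 17046 RPKM, while Cps1 and Tat were called higher (a log2 fold change, LYC minus HFD, above 1 in size with an unadjusted p below 0.01) and none of the 6 lower, beside 7.09% and 6.38% of all genes tested, with a median log2 fold change of 0.29. By RPKM, Alb, Ttr and Fgb were lower and Apoa1 higher in all LYC libraries, and none of these was called. Their log2 fold changes were -0.41 (SE 0.38), -0.03 (SE 0.27), -0.46 (SE 0.28) and 0.61 (SE 0.30). The call of Cps1 at 1.08 was lost under 7 of the alternatives, where its value was 0.78 to 1.11. The summed level of 5 cholangiocyte markers was 15.4 to 25 RPKM in HFD and 2.89 to 9.25 RPKM in LYC, where 3 of the 5 were at 0 in all libraries. The summed ranges of Kupffer cell, endothelial, stellate, lymphocyte and erythroid markers overlapped between groups, for example 110 to 146 against 93.6 to 141 RPKM for 6 Kupffer cell genes. The endothelial range was 52 to 70.8 RPKM in HFD and 11.9 to 102 RPKM in LYC, where LYC replicate 2 stood apart: Stab2, Clec4g and Kdr were at 2.77, 2.6 and 3.2 RPKM there and at 9.97 to 53 RPKM in LYC replicates 1 and 3. Pecam1, of the same list, was lower in all LYC libraries, with means of 6.95 and 2.34 RPKM, and was not called. Other single markers separated the groups within overlapping sums. Alas2 of the erythroid list was called higher at 1.01 (SE 0.25), with 38.7 to 56.9 RPKM in HFD and 73 to 79.6 RPKM in LYC, and lost the call under 6 alternatives, where its value was 0.72 to 0.97. In the same list Hbb-bs stood at 0.70 (SE 0.30) and Hba-a2 at -0.39 (SE 0.32), and neither was called. Hba-a1, with 4.29 to 7.22 RPKM in HFD and 8.68 to 11.5 RPKM in LYC, was not tested. Hbb-bt, with means of 15.4 and 5.55 RPKM, was not tested either. The Kupffer cell markers Csf1r and Timd4 were lower in all LYC libraries; Csf1r was not called, at -0.42 (SE 0.31), and Timd4, with 70 HFD reads and 1 LYC read against 9.82 at the HFD rate, was not tested. Vsig4 and Clec4f of that list stood at 1.26 (SE 0.59) and 0.14 (SE 0.28) and were not called, but Vsig4 was called higher by edgeR (1.55), by DESeq2 (1.61) and without LYC replicate 3 (1.98). The other marker calls made only under an alternative were 1 higher, Clec4g (1.13 without LYC replicate 2, -0.15 with it), and 5 genes lower: Pecam1 with total reads (-1.24), Timd4 (-1.75) and Krt7 (-1.02) with no filter, the stellate marker Col1a2 without LYC replicate 3 (-2.23) and the cholangiocyte marker Spp1 without HFD replicate 3 (-1.74) or LYC replicate 2 (-1.83). These marker levels move with the same group contrast as the genes below, and their part was not tested; fewer cells of a type and less RNA per cell cannot be told apart in whole liver.

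Neat1 (chr19:5824708-5845480, minus strand, GRCm38) was the member with the lowest pooled LYC to HFD rate ratio among those with LYC reads. Its level was 177, 65.4 and 150 RPKM in HFD replicates 1, 2 and 3, from 1535, 918 and 399 reads. In LYC replicates 1, 2 and 3 it was 5.57, 11.1 and 8.38 RPKM, from 7, 11 and 11 reads. The groups did not overlap: the highest LYC library lay far below the lowest HFD library, HFD replicate 2. The means were 131 ± 58.1 RPKM in HFD and 8.35 ± 2.77 RPKM in LYC (SD, n = 3 each). The HFD mean was 15.7 times the LYC mean. Pooled over libraries, 29 LYC reads stood against 400 at the HFD rate, a rate ratio of 0.0725 with an exact 95% interval of 0.0484 to 0.104, which covers counting error only.

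Malat1 (chr19:5795690-5802672, minus strand) lies next to Neat1 and had the highest mean of the 10 genes in both groups. Its level was 199, 128 and 140 RPKM in the HFD replicates, from 3797, 3925 and 817 reads, and 32.7, 30.8 and 28.8 RPKM in the LYC replicates, from 90, 67 and 83 reads. The LYC libraries were close to each other and all lay below the HFD libraries. The means were 156 ± 38.4 and 30.8 ± 1.92 RPKM (SD, n = 3 each), and the pooled rate ratio was 0.2 (exact 95% interval 0.175 to 0.228). Neat1 and Malat1 were the only members above the filter on low counts. In the fit over all 5670 genes tested, on the scale of log2(RPKM / TMM factor + 1), their log2 fold changes (LYC minus HFD) were -3.47 (SE 0.44) and -1.99 (SE 0.29). These values are given as a description with no test, since the set was chosen on the same contrast. Of all genes tested, 6.38% were called lower, and in 27.6% no LYC library reached an HFD library.

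**Figure D1:**
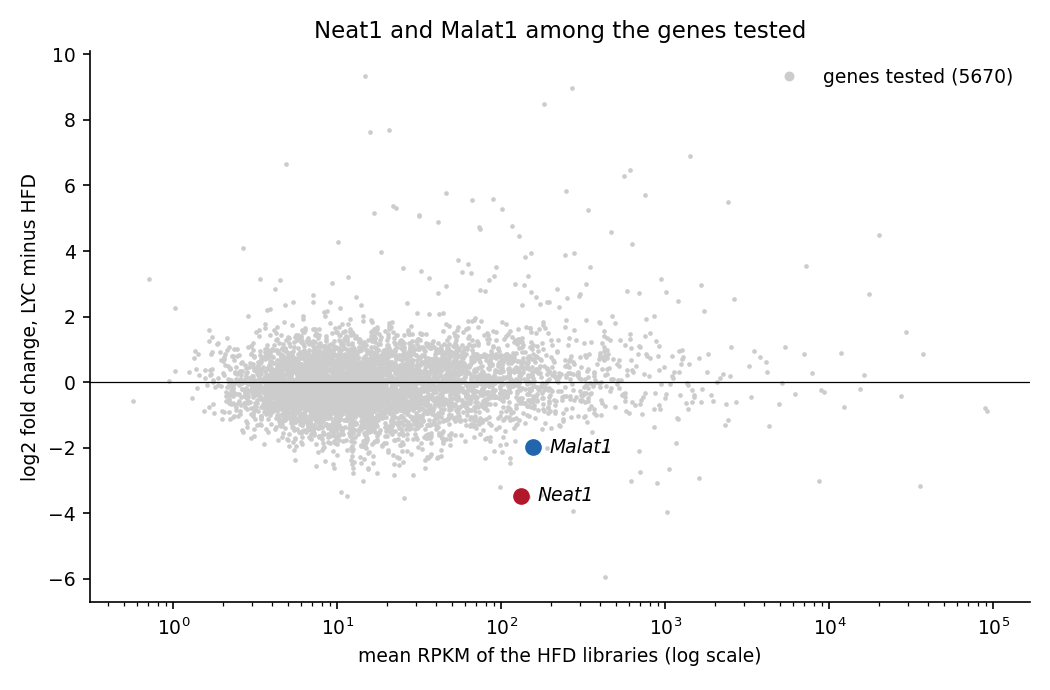
Each grey point is 1 of the 5670 genes tested, placed by its mean RPKM in the 3 HFD libraries (log scale) and its log2 fold change, LYC minus HFD. Neat1, at a mean of 131 RPKM and -3.47, and Malat1, at 156 RPKM and -1.99, lie at the lower edge among genes of their level.

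Neat1 had the 7th lowest log2 fold change of 5670 genes and Malat1 the 83rd lowest, values that are listed as a description of how the set was chosen. Among the 308 genes with at least as many HFD reads as Neat1, none had a lower fold change than Neat1, and 4 including both genes were at or below Malat1. The others were the microRNA genes Mir16-1 and Mir34a, named here after their values were seen. By HFD level the genes were not extreme: Neat1 ranked 503 and Malat1 415 from the highest mean RPKM.

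The 2 neighbouring genes did not keep their proportion. The Neat1 to Malat1 ratio of RPKM was 0.886, 0.513 and 1.07 in the HFD replicates and 0.171, 0.36 and 0.291 in the LYC replicates. Every LYC ratio lay below every HFD ratio, and HFD replicate 2, the deepest library, had the lowest HFD ratio. Neat1 was selected for its low LYC level, which rests on 7, 11 and 11 reads. The ratio is therefore a description with no test.

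The Neat1 gene makes a short polyadenylated form and a long form that share their first part, and the 2 tables count them differently. The Ribo-seq table uses a model of 3185 bases, the length of the short form (chr19:5842296-5845480 in RefSeq), whereas the second table uses a model of 20769 bases. In matching columns the longer model held 55, 44 and 12 counts more than the short model in Ribo-seq HFD replicates 1, 2 and 3, and 1, 0 and 2 more in the LYC replicates. Over the HFD libraries, the short model held 895 reads per kilobase, and the 17584 bases that the longer model adds would hold 6.31 counts per kilobase if the tables counted alike and every additional count lay there. Malat1, whose model is 6983 bases in both tables, gained 72, 79 and 21 counts in the same HFD libraries and lost 5, 6 and 2 in LYC, so that additions of the size seen for Neat1 also arise between the tables without a change of model. The reads on the short model were 96.5%, 95.4% and 97.1% of the counts on the longer model in the HFD replicates. That stretch belongs to both forms, so these reads cannot be divided between them.

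At its 3′ end the Malat1 transcript carries a tRNA-like small RNA, mascRNA, that RNase P cuts free and that leaves for the cytoplasm. It is shown because it is a second product of the same transcript, from chr19:5795924-5795981, minus strand.
mascRNA: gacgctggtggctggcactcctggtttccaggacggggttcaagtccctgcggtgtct
The Ribo-seq table lists it at 0 in all 6 libraries, and the Ribo-seq reads of Malat1 equal the sum of Malat1 and mascRNA counts of the second table in each LYC library, 90, 67 and 83, so in LYC the difference between the tables is the number given to mascRNA. In HFD that sum was 79, 88 and 23 counts above the Ribo-seq reads of Malat1. The second table gives it 9, 2 and 7 counts in its HFD columns and 5, 6 and 2 in its LYC columns. Scaled by the authors to RPKM these are 32.8, 42.8 and 40.5 in HFD and 128, 178 and 50.2 in LYC, so every LYC column lay above every HFD column, unlike Malat1, on 2 to 9 counts a column and with no test. Mir675, the microRNA inside the first exon of H19, was listed at 0 in all libraries of both tables.

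H19 (chr7:142575530-142578146, minus strand) had 5, 3 and 0 reads in the HFD replicates, 0.803, 0.298 and 0 RPKM, and no read in the LYC replicates. At the HFD rate 1.12 LYC reads were to be had, so a difference was not detectable at this depth. Its imprinted partner Igf2, a fetal growth factor, had 6 HFD reads and 0 LYC reads. Igf2r, the receptor that clears IGF2, was the member of that locus list of 12 genes with enough reads to be tested and was not called, at a log2 fold change of 0.03 (SE 0.46).

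**Figure D2:**
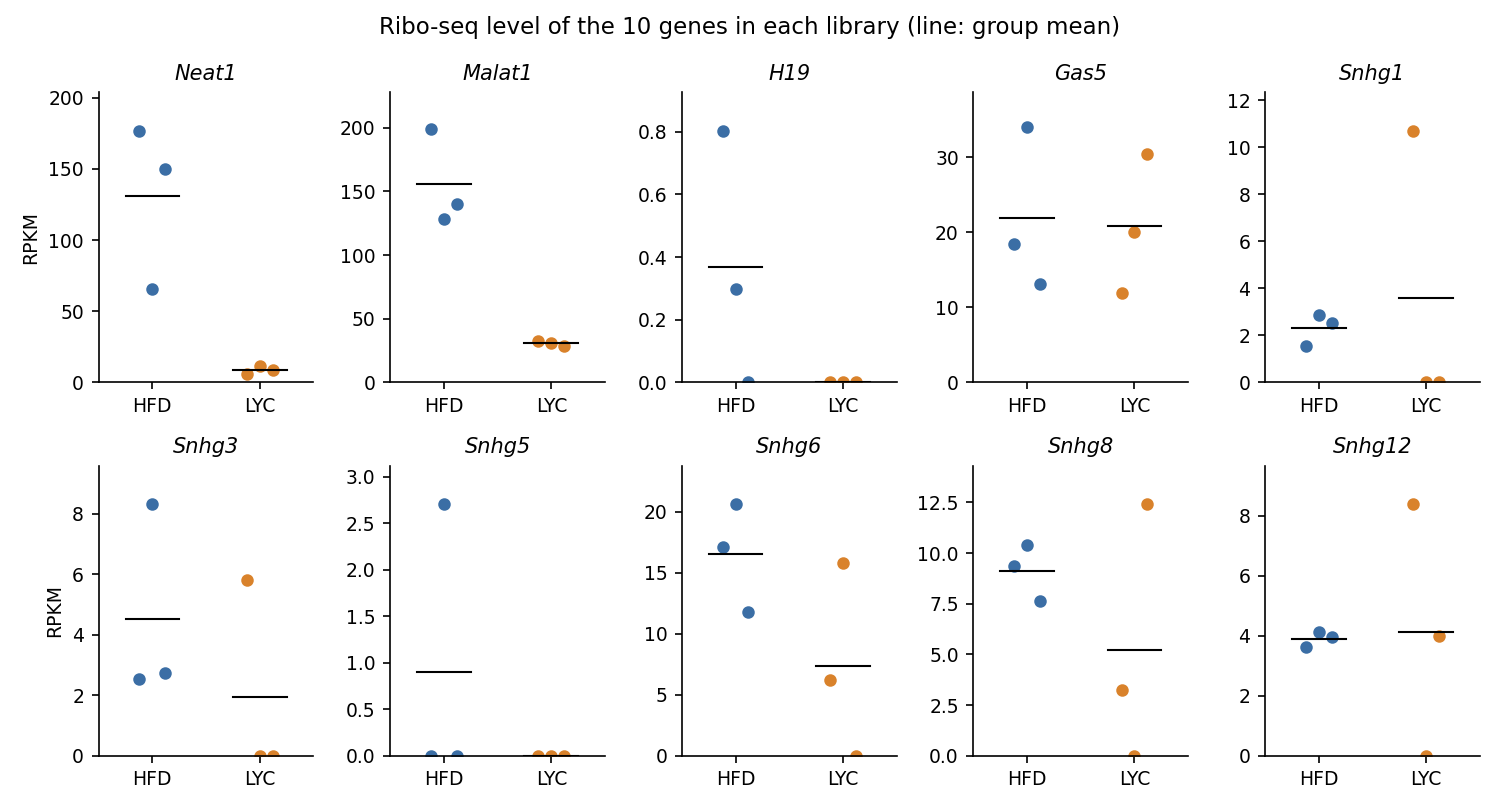
Each panel shows the RPKM of 1 gene in the 3 HFD and the 3 LYC libraries (points), with a line at the group mean and an axis that starts at 0. Neat1 and Malat1 separate the groups, while Gas5 overlaps between them and the other host genes are at 0 in at least 1 LYC library.

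Gas5 (chr1:161034601-161038539, plus strand), a host of C/D box snoRNAs whose spliced RNA is a classical target of nonsense-mediated decay, was the most abundant host. Its level was 18.4, 34.1 and 13.1 RPKM in the HFD replicates and 11.9, 20.1 and 30.4 RPKM in the LYC replicates. The groups overlapped fully, with means of 21.9 ± 10.9 and 20.8 ± 9.26 RPKM (SD, n = 3 each). The LYC values rest on 3, 4 and 8 reads, and the pooled rate ratio of 0.792 had an interval of 0.431 to 1.35. The interval covers counting error only.

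Snhg6 and Snhg8 came next. Snhg6 (chr1:9942025-9944118, minus strand), the host of Snord87, had 17.1, 20.6 and 11.8 RPKM in HFD and 6.23, 15.8 and 0 RPKM in LYC, on 19, 37 and 4 against 1, 2 and 0 reads. LYC replicate 2 lay above HFD replicate 3, so the groups overlapped. Snhg8 (chr3:123507552-123508336, minus strand) had 9.35, 10.4 and 7.63 RPKM in HFD and 3.23, 0 and 12.4 RPKM in LYC, from 20, 36 and 5 against 1, 0 and 4 reads. Here the highest value of all 6 was an LYC library. The pooled rate ratios were 0.356 (0.0715 to 1.09) for Snhg6 and 0.584 (0.183 to 1.44) for Snhg8.

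The remaining hosts had at most 20 reads in HFD and at most 3 in LYC. Snhg12 (chr4:132308678-132311024, plus strand) held 6, 11 and 2 HFD reads and 2, 0 and 1 LYC reads, with nearly equal means of 3.9 ± 0.248 and 4.12 ± 4.18 RPKM (SD, n = 3 each). Snhg3 (chr4:132351933-132353686, minus strand) had 3, 16 and 1 reads against 1, 0 and 0. Snhg1 (chr19:8723487-8726326, plus strand) had 2, 6 and 1 against 2, 0 and 0. Snhg5 (chr9:88521052-88522897, minus strand) had reads in 1 library only, 12 in HFD replicate 2. The intervals of the pooled ratio were wide, from 0.213 to 3.82 for Snhg12, from 0.0086 to 2.23 for Snhg3, from 0.167 to 7.65 for Snhg1 and from 0 to 2.57 for Snhg5.

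**Figure D3:**
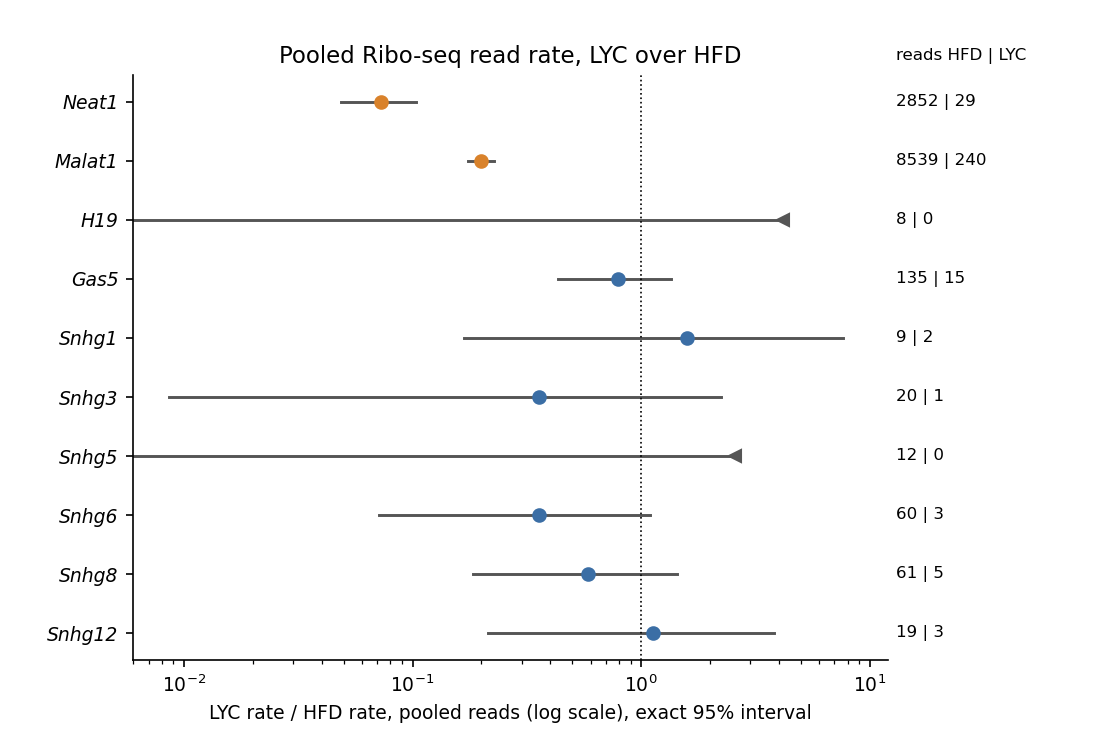
Points give the pooled read rate in LYC over that in HFD (log scale) and lines the exact 95% interval, which covers counting error only; a triangle marks the upper limit where LYC had 0 reads, and the numbers at the right are pooled reads in HFD and LYC. Neat1, for which the set was chosen, and Malat1 stand at 0.0725 and 0.2, and the lines of H19 and of the 7 hosts are long because they rest on 0 to 15 LYC reads each.

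Summed over the 7 hosts, the HFD replicates held 82, 214 and 20 reads and the LYC replicates 10, 6 and 13, against 44.3 LYC reads at the HFD rate. The summed level was 52.5, 83.1 and 41.8 RPKM in HFD and 46.2, 35.9 and 46.7 RPKM in LYC, and the groups overlapped. The pooled rate ratio of the sum was 0.654 (0.431 to 0.958, counting error only). It rests on the deepest library, HFD replicate 2, which gave 214 of the 316 HFD reads. The hosts stood at 0.263, 0.652 and 0.298 times the level of Malat1 in the HFD libraries and at 1.41, 1.16 and 1.62 times in the LYC libraries, so that on the scale of summed RPKM the order of the 2 kinds of RNA differed between groups: Malat1 alone exceeded the 7 hosts together in every HFD library and in no LYC library. This holds per length, on host models far shorter than that of Malat1. It also rests on Gas5: without it the host sum was 34.3, 15.8 and 16.4 RPKM in the LYC replicates. Malat1, at 32.7, 30.8 and 28.8 RPKM, exceeded that sum in LYC replicates 2 and 3. The host sum also depends on the table, since the second table gives Snhg8 57.4, 66.4 and 50.1 RPKM in its HFD columns. In the Ribo-seq table Snhg8 had 7.63 to 10.4 RPKM in HFD. In CPM, reads scaled to the library total and not to length, Malat1 exceeded the hosts in every library, with 201 to 228 against 19.3 to 31.5 in LYC.

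The snoRNAs inside the hosts are counted as genes of their own. RefSeq places 26 small RNA genes inside the 7 hosts on the same strand, and 8 of them are listed by symbol in the Ribo-seq table. Of these, 4 were called higher in LYC (Snord87, Snora16a, Snora44 and Snord99), none lower, 2 were tested and not called (Snord22 and Snora24) and 2 were removed by the filter on low counts (Snord47 and Snora61). Over all genes tested, 7.09% were called higher. The filter bears on this split: Snord87, Snora44 and Snord99 passed it through the LYC libraries, where they were high, and Snord47, at 0 in LYC, did not pass and was called lower with no filter. The calls are therefore no count in support of a direction. Of all 54 Snord and Snora genes tested, 31 were called higher and 5 lower, and their median log2 fold change was 1.74, beside -0.09 for all genes tested. These genes passed the same filter, so no direction of the class is read from the counts or the median.

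Snord87, the C/D box snoRNA of Snhg6 shown above, had 99.1, 67.5 and 32.4 RPKM in HFD and 2604, 2433 and 2033 RPKM in LYC, with 20, 22 and 2 reads against 76, 56 and 62. All LYC libraries lay above all HFD libraries, and the log2 fold change was 5.55 (SE 0.38). Such a separation was seen in 4 of the 8 snoRNAs and in 10.0% of genes tested, and for those that passed the filter through LYC alone nothing is read from it. Its host had 60 reads in HFD and 3 in LYC, while the snoRNA had 44 and 194, so in LYC the snoRNA had more reads in the smaller libraries. Snora16a and Snora44, H/ACA box snoRNAs in introns of Snhg12, were also higher. Snora16a, which was above the filter in both groups, had 715, 484 and 1057 RPKM in HFD and 35920, 20117 and 39895 RPKM in LYC, a log2 fold change of 5.72 (SE 0.46). Snora44 went from a mean of 46.2 ± 13.8 to 2073 ± 329 RPKM (SD, n = 3 each), and its log2 fold change was 5.78 (SE 0.29).

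The pooled read rates of the 4 snoRNAs of Snhg12 are given side by side, with no test between them. The LYC to HFD rate ratio had an exact 95% interval, which covers counting error only, of 48.8 to 57.5 for Snora16a, 34.8 to 70.2 for Snora44, 3.62 to 6.94 for Snord99 and 0.149 to 2.47 for Snora61. Snord99, a C/D box snoRNA, had 216, 223 and 150 RPKM in HFD and 1313, 344 and 1387 RPKM in LYC, a log2 fold change of 2.44 (SE 0.55); its call was lost without LYC replicate 1 (2.04) or LYC replicate 3 (2.06). Snora61 was left untested, with 23, 3 and 2 HFD reads and 0, 3 and 0 LYC reads. The host RNA of all 4 had 19 HFD reads and 3 LYC reads.

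Snord47 of Gas5 went the other way. It had 186, 161 and 111 RPKM in HFD, from 33, 46 and 6 reads, and no read in LYC. At the HFD rate 11.9 LYC reads were to be had, and against a floor of 3 reads over the LYC group its rate was at least 3.98-fold lower, a bound that takes the HFD rate as known. With the counting error of both groups, the exact 95% interval of the pooled ratio reached up to 0.316. Gas5 itself overlapped between groups. Snord22 of Snhg1, with 961, 611 and 409 RPKM in HFD and 765, 434 and 1078 RPKM in LYC, overlapped as well, with a log2 fold change of 0.49 (SE 0.44).

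**Figure D4:**
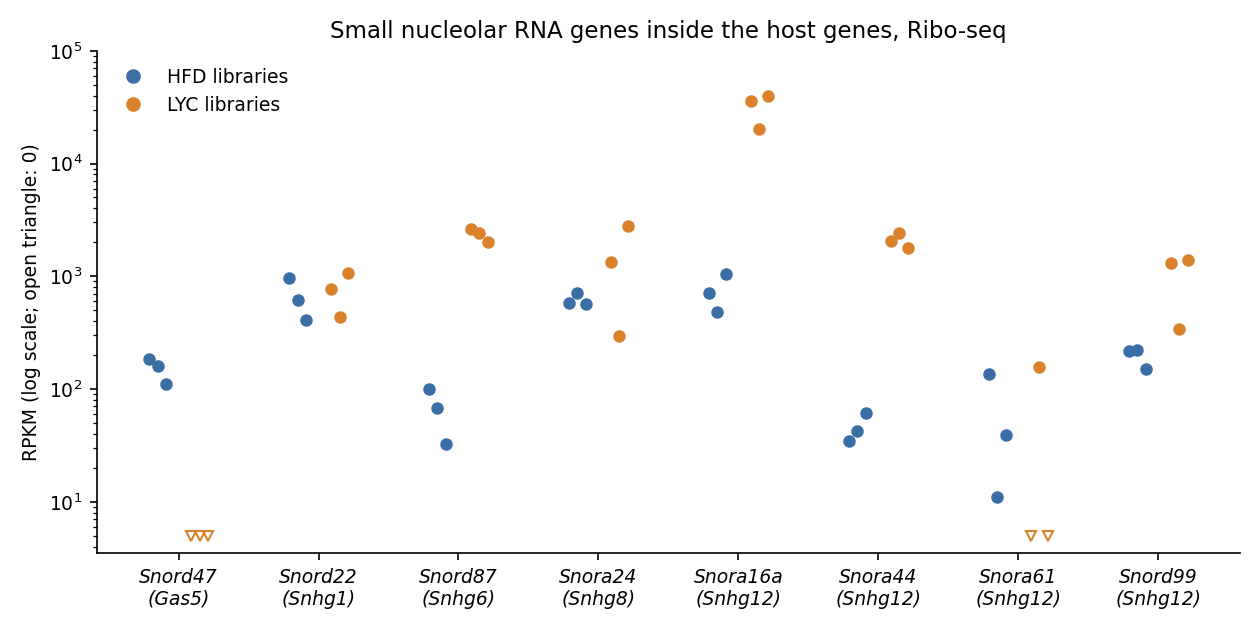
RPKM (log scale) of the 8 listed snoRNA genes inside the hosts, named in parentheses, in each HFD and LYC library; open triangles stand for 0. Snord87, Snora16a, Snora44 and Snord99 have all LYC libraries above all HFD libraries, Snord47 is at 0 in the LYC libraries, and Snord22, Snora24 and Snora61 overlap.

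For Snhg8 the split between host and snoRNA depends on the table. In the Ribo-seq table Snora24 took 207, 405 and 61 HFD reads and 68, 12 and 151 LYC reads, leaving 20, 36 and 5 and 1, 0 and 4 to Snhg8. In the matching columns of the second table Snora24 had 113, 234 and 26 and 32, 0 and 77 counts, and Snhg8 had 117, 213 and 42 and 37, 12 and 78. The sums of the pair were nearly equal: 227 and 230, 441 and 447, and 66 and 68 in HFD, and 69, 12 and 155 in both tables in LYC. The log2 fold change of Snhg8 was -1.13 on the Ribo-seq scale, where it was not tested. In the second table it was 1.58 under edgeR with TMM (2.01 without LYC replicate 2 and 0.95 without LYC replicate 3). The direction for this host thus differed between the tables, where the division of the reads and the fit both changed. The part of each was not tested. The log2 fold change of Snora24 was 1.05 (SE 0.72) and not called; it was called, at 2.02, without LYC replicate 2, and on recovered reads with edgeR at 1.61 and DESeq2 at 1.60.

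**Figure D5:**
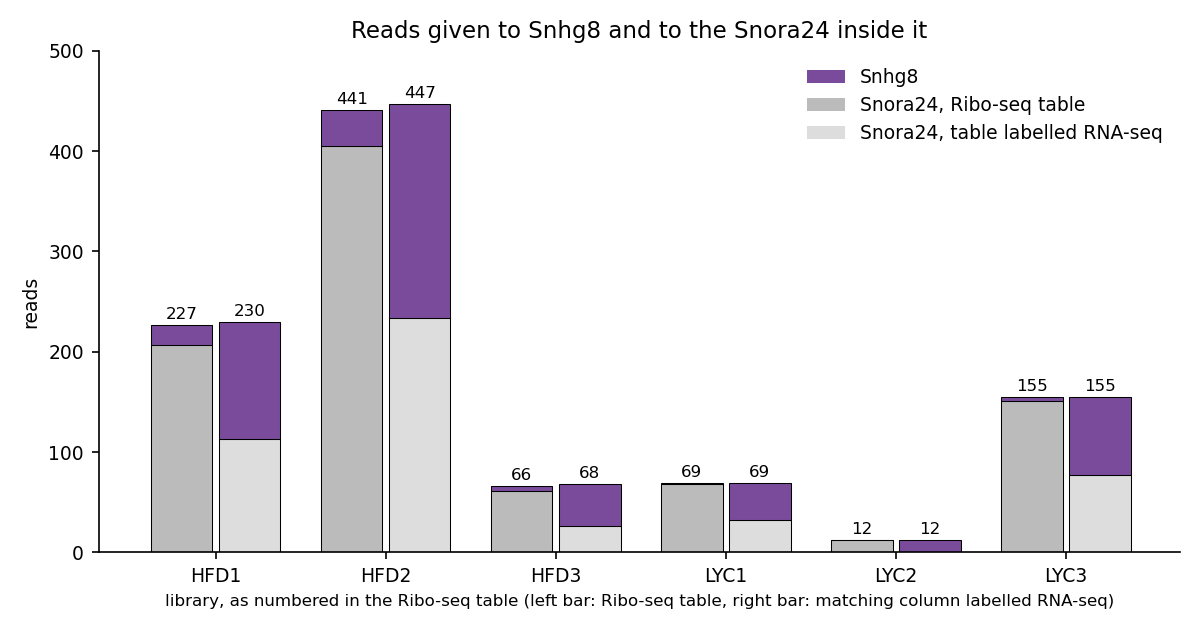
Stacked bars give the reads of Snora24 (grey) and Snhg8 (purple) in each library, in the Ribo-seq table (left bar) and in the matching column labelled RNA-seq (right bar), with the sum of the pair above. The sums differ by at most 6 reads, while the part given to Snhg8 is larger in the second table in every library.

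The other hosts were hardly touched by such a split. Snhg1, Snhg3 and Snhg12 had the same read number in all 6 matching columns, Gas5 in 5, and Snhg5 and Snhg6 in 4, with differences of at most 3 reads. Their snoRNAs lie in introns, outside the spliced models.

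Among 21 other snoRNA hosts in the table, long non-coding and protein-coding, 9 were tested, 4 were called higher and none lower, beside 7.09% and 6.38% of all genes tested, and the median was 0.40. Neither edgeR, DESeq2 nor an unadjusted p below 0.05 gave a lower one, and with no filter 1, Zfas1, was called lower. Of the 9 tested, all but Dancr are protein-coding, so these counts say little of long non-coding hosts. Dancr, a host of the H/ACA box snoRNA Snora26, had the largest log2 fold change, 3.25 (SE 0.28). It had 317, 328 and 79 HFD reads and 279, 262 and 274 LYC reads. As for Snhg8, its reads were divided in the second table. Snora26 was listed at 0 throughout the Ribo-seq table, and the second table gave 105, 89 and 11 and 47, 20 and 49 counts to it. The Ribo-seq value of Dancr thus includes reads that lie on the snoRNA. With those counts apart, Dancr had 43.7 to 70.9 RPKM in HFD and 256 to 327 RPKM in LYC, so its groups did not overlap there either. The protein-coding hosts Hspa8 (heat shock cognate 70), Eif4a1 (the mRNA helicase of translation initiation) and Ncl (nucleolin) were higher by 1.91 (SE 0.26), 1.43 (SE 0.27) and 1.05 (SE 0.31). The call of Ncl was lost under 8 of 14 alternatives, total reads, a pseudocount of 5, the replicate block and leaving out any library but LYC replicate 3, where its value was 0.77 to 1.13. Zfas1, a long non-coding host, had 32 reads in HFD and 0 in LYC, against 4.49 at the HFD rate, and was not tested. Snhg11 and Epb41l4aos, also long non-coding and untested, had 30 and 35 HFD reads. Each had 1 LYC read, against 4.21 and 4.91 at the HFD rate. The other untested hosts of the list had at most 13 HFD reads, with pooled rate ratios on both sides of 1.

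Among 20 other long non-coding RNAs of the list, 4 were tested, none was called higher and 2 lower, beside 7.09% and 6.38% of all genes tested. Kcnq1ot1, the imprinted antisense RNA of the Kcnq1 domain, had a log2 fold change of -1.24 (SE 0.32). It had 1913 HFD reads and 44 LYC reads, against 268 at the HFD rate. Tug1, a nuclear RNA, had a log2 fold change of -1.88 (SE 0.44), with 246 HFD reads and 5 LYC reads, against 34.5 at the HFD rate. Tug1 passed the filter through the HFD libraries alone, where it was high, and Kcnq1ot1 was above its limit of 16 CPM in 3 HFD and 2 LYC libraries, so nothing is read from the count of 2 beside the share of all genes. The fitted size moved with the pseudocount and the tool: edgeR and DESeq2 on recovered reads called both, at -2.28 and -2.29 for Kcnq1ot1 and -2.38 and -2.40 for Tug1. With limma both calls were lost with a pseudocount of 0.1, where the values were larger, -2.28 and -3.29, with a pseudocount of 5 (-0.45 and -0.82) and with no filter on low genes, where the values were as before. Without HFD replicate 1 or 2 Kcnq1ot1 was not called and Tug1 was not tested; without HFD replicate 3 only Tug1 of these was called, and without LYC replicate 1 only Kcnq1ot1. In those fits Kcnq1ot1 stood at -1.43 to -1.14 and Tug1 at -1.95 to -1.84. Without LYC replicate 2, Mir22hg, untested in the fit of all libraries, was called lower as well, at -2.37. Its direction turns with the table. The Ribo-seq table gives it 15.8, 11.6 and 7.46 RPKM in HFD and 2.87, 3.64 and 0 RPKM in LYC. The matching columns of the second table list 20.7, 17.8 and 11.9 RPKM in HFD and 36.1, 44.7 and 30.5 RPKM in LYC. In LYC the first table gives it 2, 2 and 0 reads and the second 43, 46 and 37. What moved these reads was not tested. Of the 26 RefSeq long non-coding genes tested besides Neat1 and Malat1, 6 were called lower and 3 higher, beside 6.38% and 7.09% of all genes, with a median log2 fold change of -0.38. They include Tug1 and Kcnq1ot1 and passed the same filter, so no direction of the class is read from the counts or the median.

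Proteins that assemble with Neat1 and Malat1 were described from the same fit. Of 26 paraspeckle protein genes in the table, 17 were tested, 2 were called higher, Ubap2l at 1.16 (SE 0.32) and Hnrnpk at 1.07 (SE 0.26), and none lower, with a median log2 fold change of -0.10. The share called higher over all genes tested was 7.09%. Neither was called under scaling by total reads, without HFD replicate 2 or without LYC replicate 2; Ubap2l was also not called with a pseudocount of 5, with the replicate block or without HFD replicate 1 or LYC replicate 3, and Hnrnpk not without HFD replicate 3. Where the calls were lost, Ubap2l stood at 0.89 to 1.16 and Hnrnpk at 0.78 to 1.04. edgeR and DESeq2 each called 3 genes of the list higher, these 2 and Matr3 (1.03 and 1.04), and Rbm3 was called with the replicate block at 1.14. With no filter, 1 gene of the list, Rbmx, was called lower. The core proteins Nono and Sfpq, which bind Neat1 directly, had log2 fold changes of 0.81 (SE 0.36) and 0.45 (SE 0.35) and were not called. Of 15 nuclear speckle protein genes, 13 were tested, 3 were called higher and none lower, again beside 7.09% and 6.38% of all genes: the splicing regulator Luc7l3 at 1.62 (SE 0.43), the SR protein Srsf3 at 1.38 (SE 0.32) and the U2 snRNP subunit Sf3b1 at 1.35 (SE 0.31). Srsf3 and Sf3b1 were above the filter's limit in all libraries, whereas Luc7l3 was above it in 3 LYC libraries and 1 HFD library, so its call is no count in support of a direction. At an unadjusted p below 0.05, 4 speckle genes and 4 paraspeckle genes were higher, and 2 speckle genes and no paraspeckle gene were lower. No share of all genes is given at this limit, so nothing is read from these counts. edgeR called 1 speckle gene, Srsf5, lower at -1.19 where DESeq2 called none. With limma Srsf5 was not called at -1.27 but was called lower under scaling by total reads (-1.55) and without LYC replicate 2 (-1.74). Rbm25, not called at 1.24, was called higher by edgeR (1.44), by DESeq2 (1.48) and without LYC replicate 3 (1.71). Of the 3 higher speckle genes, only Luc7l3 was called under scaling by total reads, only Sf3b1 without HFD replicate 1 and only Srsf3 without HFD replicate 3, and Luc7l3 was lost without LYC replicate 1 or 3. In the fits that lost the call, Luc7l3 stood at 1.23 to 1.68, Srsf3 at up to 1.33 and Sf3b1 at 1.07 and 1.21, and no value was below 1.

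RNase P and the tRNA 3′ endonuclease ELAC2 cut the 3′ end of Malat1 and RNase P that of long Neat1. Of 12 genes of this list in the table, 2 had enough reads: Rpph1, the RNA subunit of RNase P, was called higher, with 1071, 717 and 1036 RPKM in HFD and 4836, 9150 and 6884 RPKM in LYC, a log2 fold change of 3.15 (SE 0.33), and Elac2 was not called, at -0.52 (SE 0.36). Over all genes tested 7.09% were called higher. With no filter a second gene of the list, the protein subunit gene Rpp21, was called higher at 2.01. The protein subunits had 0 to 108 HFD reads and were removed by the filter. Rpph1 is itself a small structured RNA, so its reads need not be footprints either.

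Nonsense-mediated decay clears the spliced host RNAs, and snoRNP core proteins bind the snoRNAs. Of 19 decay factors, 9 were tested and none was called by limma, edgeR or DESeq2 in either direction (1 was higher at an unadjusted p below 0.05), beside 7.09% higher and 6.38% lower over all genes tested, shares at which few calls among 9 genes were to be had, with a median log2 fold change of 0.17; Gspt1 and Upf1, those with the most reads, stood at 0.17 (SE 0.29) and 0.17 (SE 0.28). Without LYC replicate 1, Rbm8a was called higher at 1.27, and without LYC replicate 3, Upf2 at 1.35 and Upf3b at 1.62, which did not pass the filter in the fit of all libraries. Of 17 snoRNP genes, 6 were tested and 1 was called higher, Nop10 of the H/ACA particle, at 1.47 (SE 0.30), beside 7.09% of all genes called higher, with a median of 0.39. None was called lower, beside 6.38%, except without LYC replicate 2, where Snu13, at -0.74 in the fit of all libraries, was called lower at -1.68. The C/D box methyltransferase gene Fbl was not called, at 0.36 (SE 0.32).

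The genes most like Neat1 across the 6 libraries, by Pearson r of log2(RPKM / TMM factor + 1), were the protein-coding genes Emilin1 (0.991), Cgrrf1 (0.989), Osbpl11 (0.989), Dsp (0.988) and Ywhaz (0.987), and those most like Malat1 were Pxmp4 (0.989), Grk4 (0.988), Dsp (0.987), Mir181a-2 (0.987) and Cldn1 (0.986). Neat1 and Malat1 correlated at 0.969. With 6 libraries that fall into 2 groups, such values follow mostly from the group difference and describe the pattern only. Dsp, which encodes the desmosome protein desmoplakin, stood on both lists, at 12.9, 11.2 and 12.7 RPKM in HFD and 3.96, 4.69 and 4.05 RPKM in LYC.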

How the data were processed

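By their labels, male mouse livers were measured in 12 libraries, 3 per group and assay. Per the labels and the study's methods, the authors trimmed reads with cutadapt, removed ribosomal RNA with Bowtie2 and mapped to mm10; versions are not given in the sources used here. The deposited Ribo-seq table holds RPKM; the deposited table labelled RNA-seq holds read counts and RPKM. All columns of per-sample values were used (0 left out).

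Whole reads were recovered from the RPKM steps with gene lengths from the second table, RefSeq or the steps themselves, for 15749 genes above 0; 4 rows that share a name were left out. RPKM was divided by TMM factors (edgeR 4.0.16) and log2-transformed with a pseudocount of 1. Genes kept by filterByExpr on recovered reads were tested with limma 3.58.1 (trend, two-sided), LYC minus HFD, and called where the log2 fold change exceeded 1 in size with p below 0.01 before adjustment. The fits were tested on simulated data, with no outcome reported here, and no result rests on that check. Counts in the second table were fitted with edgeR quasi-likelihood. Pooled rate ratios carry exact 95% binomial intervals. edgeR and DESeq2 1.42.0 on recovered reads, other scalings, pseudocounts, no filter, a replicate block and leaving out each library were alternatives.

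The members and lists were chosen with earlier results of these data known. Named genes were all 10 members, snoRNA genes inside the hosts by RefSeq coordinates, at most 6 called genes per list (the 2 with the most reads where none was called), and the 5 genes most correlated with Neat1 or Malat1. Other genes named in the text, among them Mir16-1, Mir34a, Zfas1, Igf2, Igf2r, Nono, Sfpq, Fbl, Rbmx, Elac2, Alb, Pecam1, Alas2, Hbb-bt, Hba-a2, Timd4, Csf1r, Vsig4, Clec4f, Col1a2, Krt7, Spp1, Snora26 and list genes named for a call under an alternative, were added after their values were seen; mascRNA and Mir675 were taken by RefSeq position inside a member. Replicate numbers do not pair mice: the deviations of same-numbered libraries correlated at 0.11, 0.03 and 0.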

Additional observations from a re-analysis of the deposited data

How the results depend on the processing

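Over 14 alternatives the log2 fold changes of Neat1 and Malat1 ranged from -4.05 to -3.03 and from -2.28 to -1.77. These are refits of the contrast by which the set was chosen, so the range is a description and no support for the difference. No paired structure was found, and with the replicate block the fold changes of Neat1 and Malat1 were -3.47 and -1.99, with 399 genes called higher and 343 lower. Over all genes, 402 were called higher and 362 lower; scaling by total reads gave 234 and 658 and moved the median log2 fold change from -0.09 to -0.36, an unadjusted p limit of 0.001 gave 199 and 104, a pseudocount of 5 gave 219 lower, and no filter on low genes gave 709 lower. Leaving out 1 library gave 273 to 559 higher and 149 to 743 lower; the lower calls were 177, 191 and 149 without HFD replicate 1, 2 or 3, where 4590 to 4788 genes were tested, and 743 without LYC replicate 3, where 7155 were. With a pseudocount of 0.1, the log2 fold changes of H19, Snhg1, Snhg3 and Snhg5 were -1.62, -2.05, -3.10 and -1.49, and those of Snhg6, Snhg8 and Snhg12 went from -1.56, -1.13 and -0.19 to -2.66, -2.22 and -1.11. Leaving out 1 library at a time gave -0.57 to -0.15 for H19, -0.12 to 0.48 for Gas5, -1.64 to 0.32 for Snhg1, -2.24 to -0.67 for Snhg3, -0.83 to 0.00 for Snhg5, -2.39 to -0.40 for Snhg6, -2.08 to -0.11 for Snhg8 and -0.98 to 0.79 for Snhg12. The lowest value came without LYC replicate 1 for Snhg1, Snhg3 and Snhg12, without LYC replicate 2 for Snhg6 and without LYC replicate 3 for Snhg8. The fitted direction of 3 untested hosts turned under some settings. Gas5 (0.23) was at -0.06 with total reads, -0.05 without HFD replicate 3 and -0.12 without LYC replicate 3. Snhg1 (-0.32) was at 0.13 with a pseudocount of 5 and at 0.32 and 0.28 without LYC replicate 2 or 3. Snhg12 (-0.19) was at 0.08 with a pseudocount of 5 and at 0.79 without LYC replicate 2. In the second table, 551 genes were called higher and 434 lower, and no filter gave 988 lower; there Snhg8, at 1.58, was at 2.01 without LYC replicate 2 and 0.95 without LYC replicate 3. The depth of the LYC libraries limits the hosts: none had more than 8 reads in a LYC library.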
